A study of Mus musculus with 2 samples.

Results

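Mir103-1, Mir103-2 and Mir107 are the 3 mouse genes of the miR-103/miR-107 family, and they were taken by symbol from the 2202 listed microRNA (miRNA) genes. Short RNAs, selected below 30 nucleotides, were sequenced from the hearts of 2 male B6CASTF1/J mice aged 25 days. The age label was followed for this, although the description of each sample writes months as the unit. B6CASTF1/J mice are F1 hybrids between C57BL/6J and the wild-derived CAST strain, and no treatment is named. The 2 libraries, 1 from each animal (replicates 1 and 2), belong to a single group without a contrast. The animals carry separate numbers but the same donor identifier, so the spread between the libraries may be technical.

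A miRNA is cut from a hairpin transcript, whose 5′ and 3′ sides can each give a mature strand (5p and 3p). Bases 2 to 8 of that strand, the seed, pair with target messages. The miR-103/miR-107 genes lie within genes of pantothenate kinases, the enzymes of the first committed step of coenzyme A synthesis, on which fatty acid oxidation in heart muscle depends. In mice, miR-103 and miR-107 are known as regulators of insulin sensitivity in liver and fat.

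The 3p arms, the arms these hairpins are best known for, and the 5p arms are shown because they set which reads can be told apart. Capitals mark the seed.
miR-103-3p: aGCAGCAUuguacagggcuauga
miR-107-3p: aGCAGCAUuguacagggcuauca
miR-103-1-5p: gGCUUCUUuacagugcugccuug
miR-103-2-5p: aGCUUCUUuacagugcugccuug
miR-107-5p: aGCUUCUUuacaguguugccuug
All 3 genes were matched to RefSeq's mature sequences (GRCm38.p6). Mir103-1 and Mir103-2 encode the same miR-103-3p, which thus has 2 loci. Only 54 of the 1674 distinct mature sequences in the RefSeq table (3.23%) have more than 1 locus. miR-107-3p has 1 locus and differs from miR-103-3p by G22C, counted from 1 at the 5′ end of miR-103-3p, so the seed GCAGCAU is common to all 3 genes. No other mature sequence of the RefSeq table carries that seed. On the 5p side, miR-103-1-5p and miR-103-2-5p differ by G1A, and miR-103-2-5p and miR-107-5p by C16U.

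The whole hairpins are shown to place these arms, with the 3p arm in capitals.
Mir103-1: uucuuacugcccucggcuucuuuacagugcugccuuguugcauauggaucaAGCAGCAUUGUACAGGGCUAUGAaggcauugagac
Mir103-2: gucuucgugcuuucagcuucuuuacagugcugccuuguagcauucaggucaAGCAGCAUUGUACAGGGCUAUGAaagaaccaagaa
Mir107: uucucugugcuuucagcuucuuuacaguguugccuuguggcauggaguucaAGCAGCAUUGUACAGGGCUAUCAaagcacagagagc
Outside the arms the hairpins diverge. Over the aligned length Mir103-1 and Mir103-2 were identical at 80.2% of positions, Mir103-1 and Mir107 at 80.5%, and Mir103-2 and Mir107 at 83.9%. The longest run that Mir103-1 and Mir103-2 share is 27 bases, and it covers the whole 3p arm. Mir107 shares a run of 24 bases with each of them, which ends at base 72 of the hairpin, before the base that sets the miR-107-3p arm apart.

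In the annotation (GENCODE M21, mm10) each gene sits in the same intron of a different pantothenate kinase gene. Mir107 is on chromosome 19 (chr19:34820687-34820773, minus strand) in intron 5 of the principal transcript of Pank1, which has 7 exons. Mir103-2 is on chromosome 2 (chr2:131288052-131288137, plus strand) in intron 5 of the 7-exon principal transcript of Pank2, whose human counterpart is mutated in a neurodegeneration with brain iron accumulation. Mir103-1 is on chromosome 11 (chr11:35782396-35782481, plus strand) in intron 5 of the 7-exon principal transcript of Pank3. The hairpin begins close behind the fifth exon in each host, 326 bases after it in Pank1, 454 in Pank2 and 688 in Pank3. The introns themselves differ in length, at 7282, 5801 and 1740 bases. No annotated transcript of the hosts has a miR-103/miR-107 hairpin in an exon. Host messages were not measured in these size-selected libraries.

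**Figure D1:**
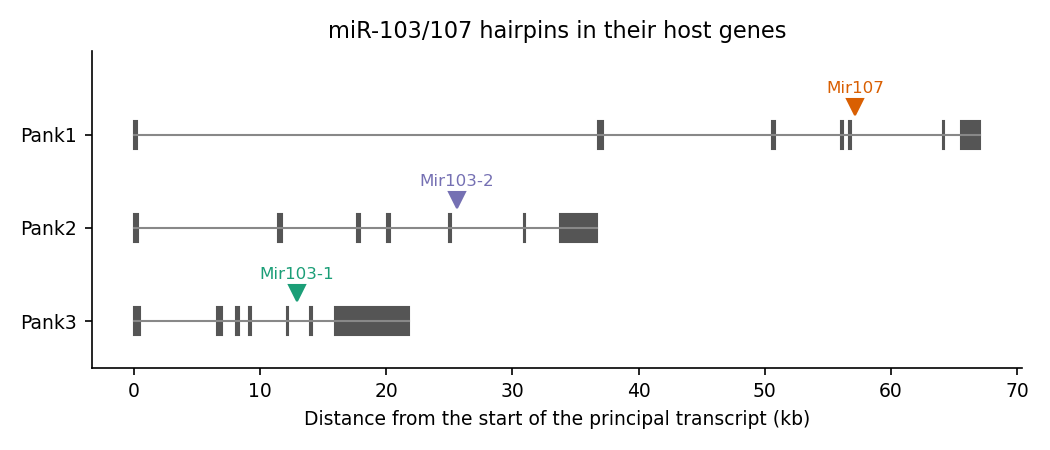
Exons (boxes) of the principal transcripts of Pank1, Pank2 and Pank3 by distance from the transcript start in kb, with a triangle at the miRNA hairpin. Each hairpin lies in intron 5, behind the fifth exon.

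The files tally reads placed at several loci apart from the genes, so the shared bases bear on what the gene counts can hold. All windows of 18, 20 and 22 bases were looked up in the hairpins of every other listed miRNA locus, on both strands. Of the 4 windows of 20 bases in miR-103-3p, 0 were found at a single locus. In miR-107-3p 2 of 4 were, those that include its base 22, and in miR-107-5p 4 of 4. miR-103-1-5p and miR-103-2-5p each have 1 of 4, the window that starts at the first base. At 22 bases, 2 of 2 windows of miR-107-3p but 0 of 2 of miR-103-3p were found at a single locus. Over whole hairpins, 86.8% of the windows of 20 bases of Mir107, 76.1% of Mir103-2 and 82.1% of Mir103-1 were at no other listed locus, against a median of 100% over the listed genes. A perfect read of the miR-103-3p arm therefore matches 2 of the listed loci. The counts of Mir103-1 and Mir103-2 leave such reads out where they were placed at both. The rest of the genome was not searched for these windows.

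**Figure D2:**
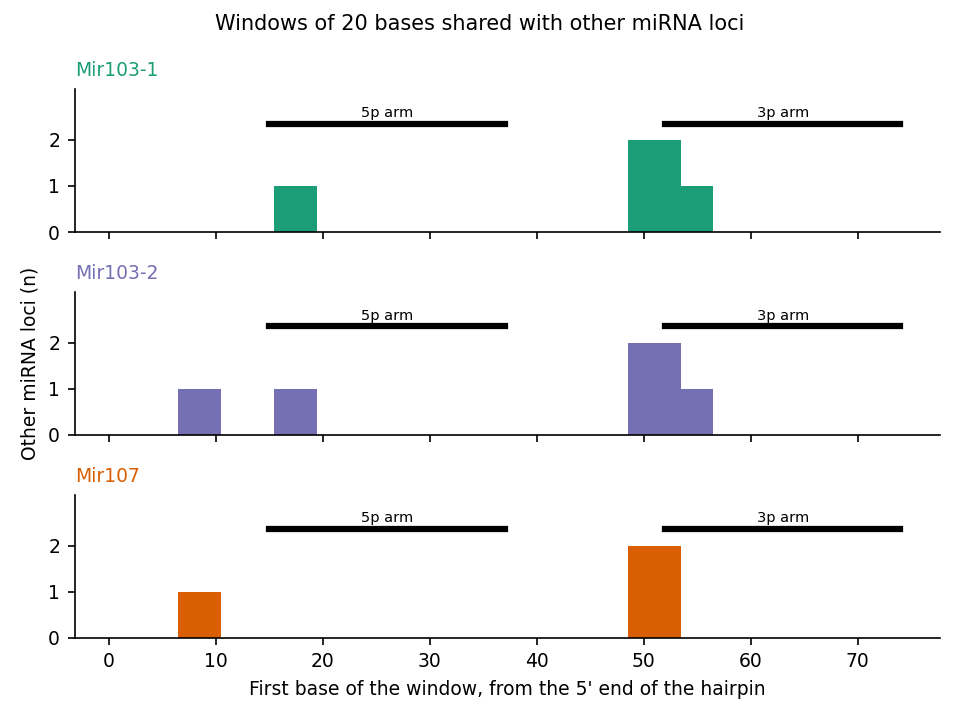
Number of other listed miRNA loci (vertical axis) that hold the same 20 bases, by the first base of the window in the hairpin (horizontal axis), with black bars over the mature arms. Windows at the start of the 3p arm are shared with 2 other loci in all 3 genes, and in Mir103-1 and Mir103-2 sharing goes on with 1 other locus to the end of the arm.

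Replicate 1 held 4930853 reads assigned to a miRNA gene and replicate 2 held 5229819. Reads placed at several loci were more numerous, 5497619 and 5375745 (41.6% and 37.4% of all reads). Levels are counts for each 1000000 assigned counts (CPM). The floor used for a gene at 0 is 3 counts, which is 0.608 CPM for replicate 1 and 0.574 CPM for replicate 2. It covers counting error only. The heart muscle genes Mir208a, Mir208b and Mir499 were present, with a summed level of 4486 CPM in replicate 1 and 6512 CPM in replicate 2. Mir208a alone, at 1361 and 3562 CPM, differed by more than these sums did. Mir208b was not called (0.994 times its level in replicate 2), and Mir499 was called higher in replicate 1 (1.06 times). All 3 neuronal Mir124a genes were at 0 counts. Gene counts leave out reads placed at several loci, so this does not show that the miRNA is absent. The red cell genes Mir451a and Mir144 differed most among the marker lists, at 21812 CPM in replicate 1 and 1161 CPM in replicate 2. The marker sums of endothelium, smooth muscle and leukocytes in replicate 1 were 0.812, 0.824 and 0.851 times those in replicate 2. The leukocyte markers moved apart, with Mir142 called higher in replicate 1 (1.85 times) and Mir150 (0.720 times) and Mir223 (0.749 times) called lower. The part of these differences in the results below was not tested.

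Mir107 carried nearly all counts of the family. It had 1896 counts in replicate 1 and 7965 in replicate 2, or 384.5 CPM (exact Clopper-Pearson 95% interval 367.4 to 402.2) and 1523 CPM (1490 to 1557). Replicate 2 was the high library, and the intervals, which cover counting error only, do not overlap. The mean was 954 ± 805 CPM (SD, n = 2), and Mir107 was at place 75 of 2202 by mean level, at place 93 in replicate 1 and place 58 in replicate 2. It made up 0.0385% and 0.152% of the assigned counts.

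Mir103-2 was far lower, with 22 counts in replicate 1 and 84 in replicate 2. Its level was 4.46 CPM (2.80 to 6.76) in replicate 1 and 16.1 CPM (12.8 to 19.9) in replicate 2, with a mean of 10.3 ± 8.20 CPM (n = 2) at place 270. Again replicate 2 was the high library and the intervals do not overlap. Mir103-1 had 0 counts in replicate 1 and 14 in replicate 2. Its level in replicate 1 is thus 0 CPM (exact interval 0 to 0.748), and in replicate 2 it is 2.68 CPM (1.46 to 4.49), intervals that do not overlap. All 3 genes were at 0 counts on the opposite strand in both libraries.

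**Figure D3:**
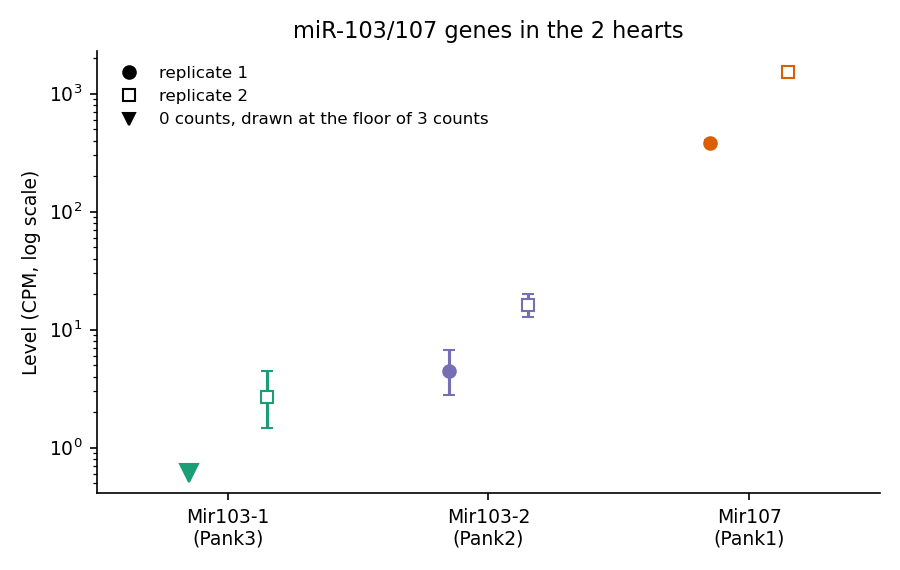
Level in CPM on a log axis of each miR-103/miR-107 gene in replicate 1 (filled) and replicate 2 (open), with exact 95% counting intervals, and a triangle at the floor of 3 counts for a gene at 0. Each gene is higher in replicate 2, and Mir107 lies far above both Mir103 genes in each library.

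The family's counts were divided in a similar way in both hearts. Mir107 held 98.9% of the family's 1918 counts in replicate 1 (exact interval 98.3 to 99.3%) and 98.8% of its 8063 counts in replicate 2 (98.5 to 99.0%). Mir103-2 held 1.15% (0.720 to 1.73%) and 1.04% (0.832 to 1.29%). Mir107 counts exceeded Mir103-2 counts by 86.2 times in replicate 1 (56.8 to 137.9) and by 94.8 times in replicate 2 (76.5 to 119.0). Mir103-2 exceeded Mir103-1 by 6 times in replicate 2 (3.38 to 11.4), and in replicate 1 the lower bound of this ratio was 5.48. The hairpins are of near equal length (86 and 87 bases), but these ratios rank assigned counts and not the mature miRNAs. Reads of the shared miR-103-3p placed at both Mir103 loci are missing from both genes. The run that the 2 Mir103 hairpins share ends at base 75, and their 3p arms end at base 74. A read that goes past base 75 can thus match 1 of them alone. How reads with bases at the 3′ end that the hairpin does not hold were placed was not tested. A read of miR-107-3p that ends before base 22 also matches the Mir103 loci, so Mir107 can lack reads too. Which part of each hairpin the counts come from was not tested. Ligation bias of small-RNA libraries also enters a ratio between genes and was not tested.

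Each gene was compared between the hearts, replicate 1 over replicate 2, with an exact conditional binomial test over the 356 detected genes (at least 10 counts in both libraries). Of these, 63.5% were called, 32.9% as lower and 30.6% as higher in replicate 1, so a call alone sets no gene apart. Both tested members were called lower in replicate 1. Mir107 was 3.96-fold lower in replicate 1 (exact interval 3.77 to 4.17), with a log2 ratio of -1.99 and an adjusted p too small to be represented. Mir103-2 was 3.60-fold lower (2.23 to 6.05), with a log2 ratio of -1.82 (exact binomial test, Benjamini-Hochberg adjusted p = 1.09e-08). Mir103-1, below the count minimum in replicate 1, was not tested. Against the floor of 3 counts in replicate 1 it was at least 4.40-fold lower there if its 14 counts in replicate 2 are taken without error. The exact interval of its ratio, which includes that error, begins at 3.13-fold lower. The test compares 2 libraries and covers counting error only.

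Set against the spread between the libraries, the difference was large. The log2 ratio of detected genes had a median of -0.02 and an SD of 0.86, and the biological coefficient of variation that edgeR estimated over all of them was 0.386. Mir107 lay 2.30 SD and Mir103-2 2.11 SD below the median. Of the 356 detected genes, 5 had a lower ratio than Mir107 and 7 a lower one than Mir103-2. The 5 genes, named after their values were seen, were Mir31 (log2 ratio -4.07), Mir26a-1 (-2.76), Mir669e (-2.48), Mir34c (-2.29) and Mir455 (-2.02). In bulk tissue, fewer cells that hold a miRNA and less of it per cell cannot be told apart.

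**Figure D4:**
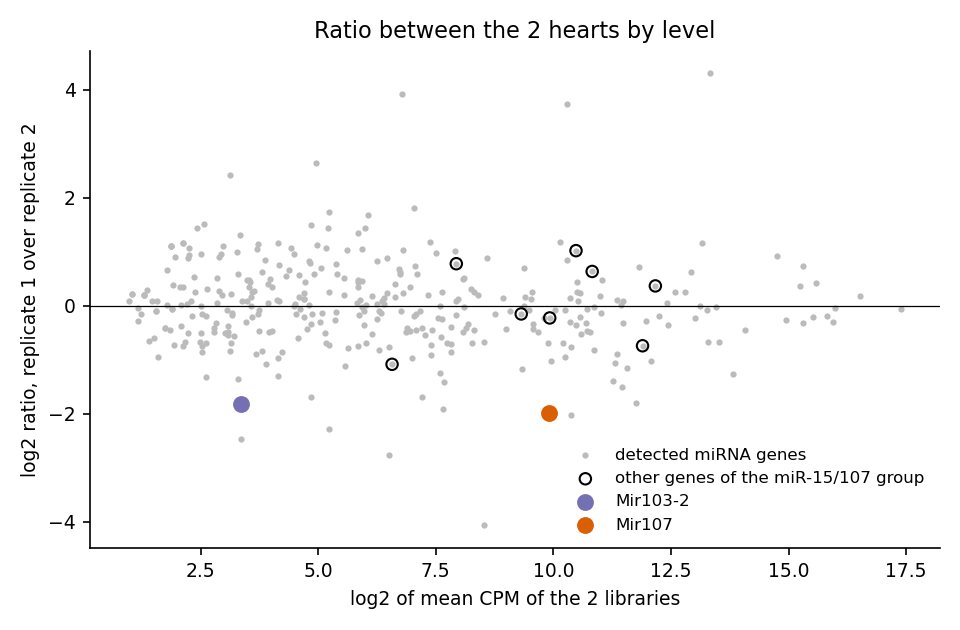
Log2 ratio of replicate 1 over replicate 2 against log2 mean CPM for the 356 detected miRNA genes (grey). Mir107, Mir103-2 and 8 other genes taken from the miR-15/miR-107 group are marked. Mir107 at -1.99 and Mir103-2 at -1.82 lie at the lower edge of the cloud at very different levels. Those 8 genes lie on both sides of 0.

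Mir107 and Mir103-2 were lower to a similar degree. The odds of Mir107 over Mir103-2 in replicate 1 were 0.909 times those in replicate 2 (exact interval 0.561 to 1.53), an interval that includes 1 and is wide because Mir103-2 had few counts. The summed family was at 389 CPM in replicate 1 and 1542 CPM in replicate 2, 3.96-fold lower in replicate 1 (3.77 to 4.17), and this sum is nearly all Mir107.

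The same comparison was made in other families that lie in introns of related host genes. The Mir26 genes lie in the Ctdsp phosphatase genes, and like the miR-103/miR-107 family they have a pair of loci with an identical main arm (miR-26a-5p, 2 loci) and a relative with its own (miR-26b-5p, 1 locus). Mir26b was at 36056 CPM in replicate 1 and 19091 CPM in replicate 2, against 23.3 and 158.7 CPM for Mir26a-1 and 49.5 and 80.1 CPM for Mir26a-2. In both families the gene with its own arm had most of the assigned counts, but reads of the shared arm placed at both loci are left out. These levels and the odds below therefore compare assigned counts and do not rank the mature miRNAs. Between the hearts, however, Mir26b was called higher in replicate 1 (log2 ratio 0.92), while Mir26a-1 and Mir26a-2 were called lower (-2.76 and -0.69). The odds of Mir26b over Mir26a-1 in replicate 1 were 12.9 times those in replicate 2 (10.6 to 15.8), and those of Mir26b over Mir26a-2 were 3.06 times (2.60 to 3.60). Neither interval overlaps that of Mir107 over Mir103-2.

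Further pairs were compared in the same way. The odds of Mir128-1 over Mir128-2, in the R3hdm1 and Arpp21 genes, were 0.715 times those in replicate 2 (0.536 to 0.945), and those of Mir218-1 over Mir218-2, in the axon guidance genes Slit2 and Slit3, were 1.99 times (1.08 to 3.70). Mir208a over Mir208b, in the alpha- and beta-myosin genes Myh6 and Myh7, gave 0.384 (0.350 to 0.423). The intervals of the Mir128 and Mir218 pairs overlap that of the miR-103/miR-107 pair, and that of the Mir208 pair does not. Of the 10 genes in this list, 4 were called higher in replicate 1, 3 lower and 3 not. Of all detected genes 30.6% were called higher and 32.9% lower. The list's median log2 ratio was 0.04 against -0.02 over all detected genes.

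**Figure D5:**
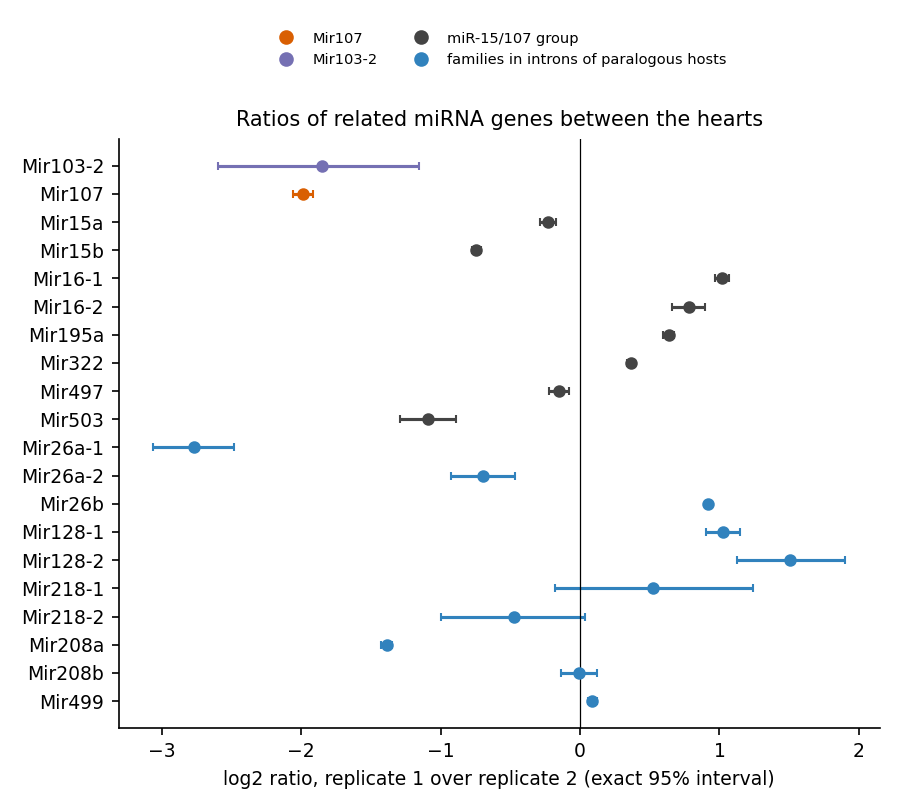
Log2 ratio of replicate 1 over replicate 2, from counts without a pseudocount, with exact 95% intervals. Shown are Mir103-2, Mir107, 8 other genes taken from the miR-15/miR-107 group and the families in introns of paralogous hosts. Mir103-2 and Mir107 overlap each other near -2, and only Mir26a-1 of the other genes shown lies lower.

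The miR-15/miR-107 group joins miRNAs that carry AGCAGC near the 5′ end. They are shown to place that motif against the miR-103/miR-107 arms above, and capitals again mark bases 2 to 8.
miR-15a-5p: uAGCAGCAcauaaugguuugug
miR-16-5p: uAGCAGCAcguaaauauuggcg
miR-195a-5p: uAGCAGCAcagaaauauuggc
miR-503-5p: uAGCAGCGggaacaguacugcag
The motif AGCAGC starts at base 1 in miR-103-3p and miR-107-3p. It starts at base 2 in the 5p arms of the 8 other genes taken from the group, so the seeds are offset by 1 base. The search used the mature strands as written, and 13 of 1674 distinct mature sequences (0.777%) hold AGCAGC from base 1 or 2. Some of these come from neither the 3 members nor those 8 genes.

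The 8 other genes taken from the group, known for restraining the cell cycle, all had at least 10 counts in both hearts. Of these 8, 4 were called lower and 4 higher in replicate 1, against 32.9% and 30.6% of all detected genes. Their median log2 ratio was 0.11. Lower were Mir503 (log2 ratio -1.09), Mir15b (-0.74), Mir15a (-0.23) and Mir497 (-0.15). Higher were Mir16-1 (1.02), Mir16-2 (0.78), Mir195a, a miRNA known from postnatal heart muscle (0.63), and Mir322 (0.37). None of the 8 had a ratio as low as that of Mir107. Mir322 was the most abundant of these 8 genes, at 5187 CPM in replicate 1 and 4024 CPM in replicate 2. Mir503 was the least abundant, at 60.8 CPM in replicate 1 and 129.3 CPM in replicate 2. The genes Mir16-1 and Mir16-2 also share their main arm (miR-16-5p, 2 loci). Mir16-1 was at 1915 CPM in replicate 1 and 945 CPM in replicate 2, with Mir16-2 at 309 and 181 CPM. The odds of Mir16-1 over Mir16-2 in replicate 1 were 1.18 times those in replicate 2 (1.08 to 1.29). That interval overlaps the one of Mir107 over Mir103-2, so a similar shift of 2 related genes was not particular to the miR-103/miR-107 pair.

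Among the 6 listed metabolic miRNAs, 5 of them tested, 2 were called higher and 2 lower in replicate 1. Of all detected genes 30.6% were called higher and 32.9% lower. Mir378a, in the Ppargc1b gene of mitochondrial energy metabolism, had a log2 ratio of -0.05 and Mir143 one of -0.27. Mir375, known from pancreatic islets, had one of 1.16 and Mir122, the leading liver miRNA, one of 0.67. Mir33, which lies in the sterol regulator gene Srebf2, had 28 and 42 counts and was not called (log2 ratio -0.49), and Mir802 had 2 and 0 counts and was not tested.

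By mean level the genes next to Mir107 were Mir15a at 971 ± 108 CPM, Mir146 at 984 ± 473 CPM and Mir181b-2 at 1057 ± 43.5 CPM above it, and Mir486 at 952 ± 313 CPM, Mir411 at 892 ± 97.5 CPM and Mir425 at 816 ± 195 CPM below it (SD, n = 2). All 6 differ from Mir107 by less than its spread between the hearts. Next to Mir103-2 were Mir504, Mir219a-1 and Mir199b above and Mir669e, Mir3099 and Mir511 below, within 9.81 to 11.2 CPM. Mir103-1, at 1.34 ± 1.89 CPM, stood among Mir9-3, Mir3080, Mir7073, Mir135a-2, Mir6946 and Mir6994, between 1.30 and 1.38 CPM.

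Likeness was measured as the distance between 2 genes in log2 CPM over the 2 libraries. Nearest to Mir107 were Mir455, in the collagen gene Col27a1 (distance 0.67, with 527 CPM in replicate 1 and 2136 CPM in replicate 2), Mir132 (0.78) and Mir146, known from inflammation (0.78). Nearest to Mir103-2 were Mir511, in the macrophage receptor gene Mrc1 (0.34), Mir669e (0.55) and Mir450-2 (0.70). No such genes are given for Mir103-1, because at 0 counts in replicate 1 its distance to any detected gene is set by the count minimum and the pseudocount. With only 2 libraries this likeness describes levels and does not show that genes vary together.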

How the data were processed

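The authors deposited raw counts of reads for each miRNA gene, on build mm10 with GENCODE M21, per the text accompanying the deposited files. Aligner: not given in the sources used here. The build is the C57BL/6J genome, also for reads from CAST alleles. Counts of the gene's own strand were used, and the 4 entries for unassigned reads (62.7% and 63.6% of reads) were left out of totals. Log2 ratios use a pseudocount of 0.5 counts. The exact binomial test (scipy 1.17.1) used a threshold of 0.05 after Benjamini-Hochberg adjustment over all detected genes. It was tested on simulated counts with counting error only, so that check does not cover the spread between the libraries. The spread came from edgeR 4.0.16 with an intercept only, since 1 group leaves no contrast. Hairpins were aligned with Biopython 1.88. No molecular identifiers are mentioned, so intervals cover counting error only.

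The family and the lists were chosen with earlier results of these data known. Named genes are the 3 members, their 3 neighbours by level on each side, the 3 detected genes most like Mir107 and Mir103-2, and all list members. One listed name, Mir497a, is Mir497 in the annotation. Alternatives changed the strand column, the scaling (TMM, DESeq2 1.42.0 size factors, all reads) and the count minimum, or left out a library.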

Additional observations from a re-analysis of the deposited data

Results flagged for a closer look

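Signal appeared among reads that the gene counts do not use. Reads placed at several loci numbered 5497619 in replicate 1 and 5375745 in replicate 2, or 1.11 and 1.03 for each assigned read. How many of them are miR-103-3p reads was not tested.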

How the results depend on the processing

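Mir107 was called lower in replicate 1 under all 6 alternatives, with log2 ratios from -1.99 to -1.94, and Mir103-2 under the 5 in which it could be tested, from -1.83 to -1.78 (adjusted p at most 3.48e-08, exact binomial test). With a minimum of 100 counts Mir103-2 has no value. Without a filter on low counts Mir103-1 was tested and called lower (log2 ratio -2.14 against the floor of 3 counts, with an exact interval that ends at -1.65, adjusted p = 0.000553, exact binomial test), because it then passed the minimum. The number of called genes was 226 of 356 tested. It lay between 180 of 222 (minimum of 100 counts) and 242 of 754 (no filter), so the share called depended on the filter. Leaving out replicate 1 or replicate 2 in turn gave levels from 384.5 to 1523 CPM for Mir107, from 4.46 to 16.1 CPM for Mir103-2 and from 0 to 2.68 CPM for Mir103-1. Places by level then ran from 58 to 93, from 238 to 324 and from 348 to 676, and the share of Mir107 in the family from 98.8 to 98.9%. Place 676 of Mir103-1 is a tie that it shares with all genes at 0 counts in replicate 1. Scaled to all reads, mean levels were 349 CPM for Mir107, 3.76 CPM for Mir103-2 and 0.487 CPM for Mir103-1, since 37.3% and 36.4% of reads are assigned, and with the unstranded column they were 1315, 14.1 and 1.85 CPM. These means moved by less than 1 SD between the libraries. That SD is wide, at 0.844 times the mean for Mir107, 0.799 for Mir103-2 and 1.41 for Mir103-1, so this says little about robustness. No paired analysis was possible because there is 1 group. Mir103-1 and Mir103-2 rest on few counts, 14 and 84 or fewer, and reads of miR-103-3p placed at both loci are not among them.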
